A study of Homo sapiens with 8 samples.

Results

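In a human breast cancer cell line exposed to an advanced glycation end product, 10 genes that write, copy, read or remove DNA methylation were followed. They were UHRF1, UHRF2, DNMT1, DNMT3A, DNMT3B, TET1, TET2, TET3, TDG and MBD2. These 10 genes were taken by symbol from the 17649 genes of the deposited table of CPM, the reads of a gene scaled to a common library size, and all of them had 1 row with a value in each of the 8 libraries. The choice was made with earlier results of the same comparison known, so their differences between the groups are given as a description, with no test. The cells were MDA-MB-231, an established line from an estrogen receptor–negative breast cancer. Control libraries (n = 4) came from cells given PBS, and CML libraries (n = 4) from cells given N-carboxymethyl-lysine (CML, written NCML in the sample names) at 1 µM for 48 hours, all in low-glucose medium. The study asked whether an end product of sugar chemistry that builds up in diabetes alters such cells. Each group is 4 numbered replicates of 1 cell line, and the labels do not say how far apart the cultures were kept, so the spread between libraries may be partly technical.

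DNA methylation is the addition of a methyl group to cytosine, mostly in the dinucleotide CG. After a replication fork has passed, the new strand lacks the mark, and UHRF1 binds the hemimethylated CG and recruits DNMT1, the maintenance methyltransferase, which restores it. DNMT3A and DNMT3B place methylation at unmethylated sites. TET1, TET2 and TET3 oxidize the methyl group, and TDG excises the oxidized bases so that base excision repair can put an unmodified cytosine back. MBD2 binds methylated CG and brings the NuRD complex, which deacetylates histones. UHRF1 and DNMT1 are best expressed in dividing cells, and UHRF1 RNA rises as cells enter S phase.

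The 8 libraries held from 16161804 to 18954732 estimated reads, with 1 read worth 0.0535 to 0.0622 CPM. The markers of the line were abundant, with VIM between 4014 and 4243 CPM, CD44 between 803 and 885 and EGFR between 893 and 979. Of the hormone receptor and luminal markers, PGR and CDH1 stayed at or below 0.954 CPM in every library, ERBB2 reached 54.4 CPM and EPCAM 16.3 CPM, and ESR1 was not among the rows. The leukocyte marker PTPRC reached 0.65 CPM, the endothelial marker PECAM1 3.84 CPM, and the fibroblast markers COL1A1 and ACTA2 13.3 and 1.55 CPM. Libraries stood apart by base composition. Across 12977 genes, the deviation of a library from the mean of all 8 had a Spearman's rho with transcript GC content of 0.50 in control replicate 1, −0.53 in control replicate 4 and −0.53 in CML replicate 4, and of 0.13 to 0.22 in the other 5 libraries.

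UHRF1 (RefSeq GRCh38.p14, 19:4903080-4962154) and DNMT1 (19:10133346-10194953) lie on the same chromosome and were the 2 genes of the 10 whose CML libraries all lay above all control libraries. Among all 17649 genes this held for 2.5%, and for 1.27% the CML libraries all lay below. Since the 10 genes were chosen on this contrast, nothing is read from their share against these. The 250 bases before a start of each follow, 5′ to 3′ on the gene's own strand, because of that shared separation and because both are textbook targets of the E2F factors of S phase entry. Capitals mark the letters of the E2F consensus on either strand, searched as the spelling TTGGCGC, the spelling TTGCCGC, the spelling TTCGCGC and the spelling TTCCCGC. The UHRF1 run is chr19:4909251-4909500 on the plus strand, before 1 of its 3 starts in the promoter table. It held the most E2F matches of the 3, and the 250 bases before the other starts held 1 and 0. The DNMT1 run is chr19:10194954-10195203 on the minus strand.
UHRF1: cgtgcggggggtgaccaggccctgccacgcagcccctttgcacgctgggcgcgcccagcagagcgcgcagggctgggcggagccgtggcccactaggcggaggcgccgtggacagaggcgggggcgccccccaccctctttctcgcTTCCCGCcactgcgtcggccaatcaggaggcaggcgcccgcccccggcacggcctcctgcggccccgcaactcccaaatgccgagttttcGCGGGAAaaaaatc
DNMT1: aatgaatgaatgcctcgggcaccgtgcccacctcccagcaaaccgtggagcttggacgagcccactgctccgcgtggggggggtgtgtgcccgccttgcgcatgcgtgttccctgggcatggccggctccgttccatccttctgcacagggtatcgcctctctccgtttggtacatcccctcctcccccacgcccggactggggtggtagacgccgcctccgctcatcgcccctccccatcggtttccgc
The UHRF1 run held 2 matches, TTCCCGC beginning 104 bases before the start and its reverse complement beginning 14 bases before it. CCAAT, a common promoter element, began 86 bases before the start. The DNMT1 run held no whole match, but TTCGCGC on the opposite strand began 2 bases before the start and ran across it. In windows of 300 bases (250 before and 50 after the start), 13.0% of 35116 human promoters held at least 1 of these E2F letters on either strand, which is 15.3% of genes at 1 or more of their starts, and 34.6% of promoters held CCAAT. Of the 21 promoters of the 10 genes, 6 held an E2F match, and they belonged to 5 genes: UHRF1, DNMT1, UHRF2 (36 bases before), TDG (123 bases before) and TET3 (132 bases before). The 3 genes UHRF2, TDG and TET3 had overlapping control and CML values. The matches are letters in a sequence, and binding was not measured.

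UHRF1, the reader of hemimethylated CG, was at 8.47, 7.64, 7.68 and 7.13 CPM in the 4 control libraries. It was at 9.90, 9.76, 9.92 and 9.68 CPM in the 4 CML libraries. The groups did not overlap, and the lowest CML library was 1.14 times the highest control library. The means were 7.73 ± 0.55 CPM in control and 9.82 ± 0.12 CPM in CML (SD, n = 4 each), a ratio of 1.27. In log2(CPM + 1), where the added 1 shrinks differences between low values, the difference was 0.31 ± 0.05 (SE). With limma's voom on the estimated reads, an alternative setting, it was 0.35 ± 0.09 (SE). These levels rest on 125 to 183 estimated reads per library. The coefficient of variation of the CML libraries, 1.17%, was below the 7.72% that counting reads at that depth gives alone, whereas that of the control libraries, 7.16%, was near its 8.74%. Within the control group, UHRF1 was highest in replicate 1 and lowest in replicate 4, the libraries with the most positive and the most negative relation to GC content, and the UHRF1 transcript is 55.7% GC. With GC content and transcript length removed from each library, a setting chosen after seeing the data, the difference was 0.31 ± 0.08. The estimated UHRF1 reads were whole numbers in 1 library of 8, and how shared reads were assigned is not given in the sources used here. The UHRF1 interval overlaps ARRDC5, which was not among the rows. In bulk RNA, more cells that express UHRF1 and more UHRF1 RNA per cell cannot be told apart.

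UHRF2 (9:6413199-6507054), the paralog that binds 5-hydroxymethylcytosine and does not replace UHRF1 in maintenance, showed no such separation. It was at 33.3, 36.7, 35.0 and 37.0 CPM in control and at 35.8, 36.1, 36.1 and 32.8 CPM in CML. CML replicate 4 lay below the lowest control library and the other 3 CML libraries within the control range, and the log2 difference was −0.01 ± 0.05 (SE, n = 4 each). The ratio of UHRF1 to UHRF2 in CPM therefore ran from 0.193 to 0.254 in control and from 0.27 to 0.295 in CML. Its lack of overlap restates the separation of UHRF1. Gene length cancels when this ratio is compared between libraries. A relation to GC content need not cancel, since the UHRF1 and UHRF2 transcripts are 55.7% and 44.1% GC.

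DNMT1, the maintenance methyltransferase, had the highest CPM of the 10 genes, a value not corrected for transcript length. It was at 160.9, 160.3, 153.9 and 152.4 CPM in control. It was at 170.8, 180.7, 176.8 and 167.8 CPM in CML. All 4 CML libraries exceeded the highest control library, although the gap between the groups was narrow. The means were 156.9 ± 4.35 and 174.0 ± 5.81 CPM (SD, n = 4 each), which put CML 10.9% above control, and the log2 difference was 0.15 ± 0.03 (SE). With 2545 to 3378 reads per library, counting error alone gives a coefficient of variation of 1.94% in control and 1.83% in CML, against 2.77% and 3.34% observed. DNMT1 was lowest in replicate 4 of both groups, and its transcript is 54.9% GC. With GC content and length removed, the difference was 0.14 ± 0.03. The ratio of UHRF1 to DNMT1 in CPM was 0.0468 to 0.0527 in control and 0.054 to 0.058 in CML.

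**Figure D1:**
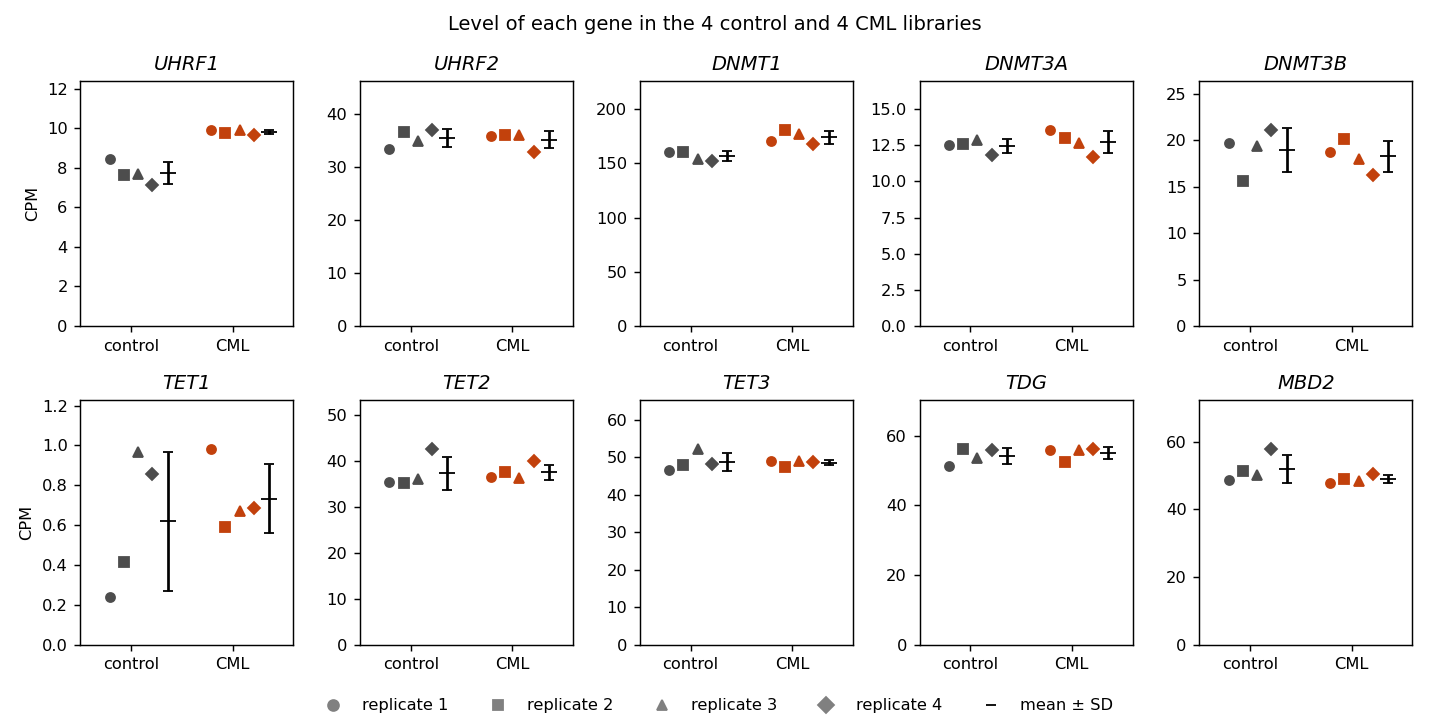
CPM of each of the 10 genes in the control (grey) and CML (orange) libraries, with the marker shape giving the replicate number, the bar the mean ± SD of 4, and each axis starting at 0. UHRF1 in CML sits between 9.68 and 9.92 CPM, above all control libraries (7.13 to 8.47), DNMT1 separates by a narrower gap, and the groups overlap for the other 8 genes.

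For the de novo methyltransferases the groups overlapped. DNMT3A (2:25227874-25342590) was at 12.5, 12.6, 12.9 and 11.8 CPM in control and at 13.5, 13.0, 12.6 and 11.7 CPM in CML, with a log2 difference of 0.03 ± 0.05. Of its CML libraries, 2 lay above the highest control library and CML replicate 4 lay below the lowest. DNMT3B (20:32762385-32809356) was the most variable of the well-detected members. It was at 19.7, 15.6, 19.4 and 21.1 CPM in control and at 18.7, 20.2, 17.9 and 16.2 CPM in CML. Its coefficient of variation was 12.4% in control and 8.97% in CML, where counting alone gives 5.58% and 5.65%, and the log2 difference was −0.05 ± 0.10. A difference of the size seen for DNMT1 would lie within 2 of these standard errors, so for DNMT3B it was not detectable at this spread.

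The 3 TET dioxygenases fell into 2 classes of abundance. TET1 (10:68560337-68694487) was barely detected, with 4, 7, 16 and 15 reads in the control libraries and 17, 11, 11 and 11 in the CML libraries. These counts correspond to 0.238 to 0.968 CPM in control and 0.588 to 0.984 CPM in CML, and the log2 difference of 0.12 ± 0.16 was smaller than its error. TET2 (4:105145875-105279803), which is often mutated in myeloid neoplasms, was at 35.4, 35.2, 36.2 and 42.7 CPM in control and at 36.5, 37.6, 36.3 and 39.9 CPM in CML. It was highest in replicate 4 of both groups, the 2 libraries with the most negative relation to GC content, and its transcript is 41.2% GC. The log2 difference was 0.01 ± 0.07. TET3 (2:73983631-74135498) was at 46.5, 48.0, 52.3 and 48.1 CPM in control and at 49.0, 47.5, 49.0 and 48.7 CPM in CML, with a log2 difference of −0.0041 ± 0.036. The TET3 interval also holds BOLA3 and the pseudogene FNBP1P1, which have rows of their own, and TET2 lies across the antisense gene TET2-AS1. The study describes a stranded kit for its tumors, but whether the reads of these libraries were counted by strand is not given in the sources used here.

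TDG (12:103965872-103988874), the glycosylase that removes the oxidized products of the TET enzymes, was at 51.1, 56.2, 53.5 and 55.8 CPM in control. It was at 55.9, 52.5, 55.8 and 56.3 CPM in CML. The groups overlapped and the log2 difference was 0.03 ± 0.04. Its estimated reads were whole in 4 libraries of 8, so its level is also less certain than that of the 8 members with whole reads throughout. MBD2 (18:54151606-54224669), the reader of methylated CG, was at 48.7, 51.3, 50.1 and 58.0 CPM in control and at 47.9, 49.0, 48.3 and 50.5 CPM in CML. It had the lowest log2 difference of the 10 genes, −0.08 ± 0.05, with 2 of its 4 CML libraries below the lowest control library and 2 within the control range. Like TET2 it was highest in replicate 4 of both groups, and its transcript is 45.1% GC. With GC content and length removed its difference was −0.09 ± 0.04. Replicate 4 did not stand the same way for all members. UHRF2 (44.1% GC) and DNMT3B (53.9% GC) were highest in it among controls and lowest in it among CML libraries. DNMT3A (53.7% GC) was lowest in it in both groups. The part of GC content in these positions was not tested.

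**Figure D2:**
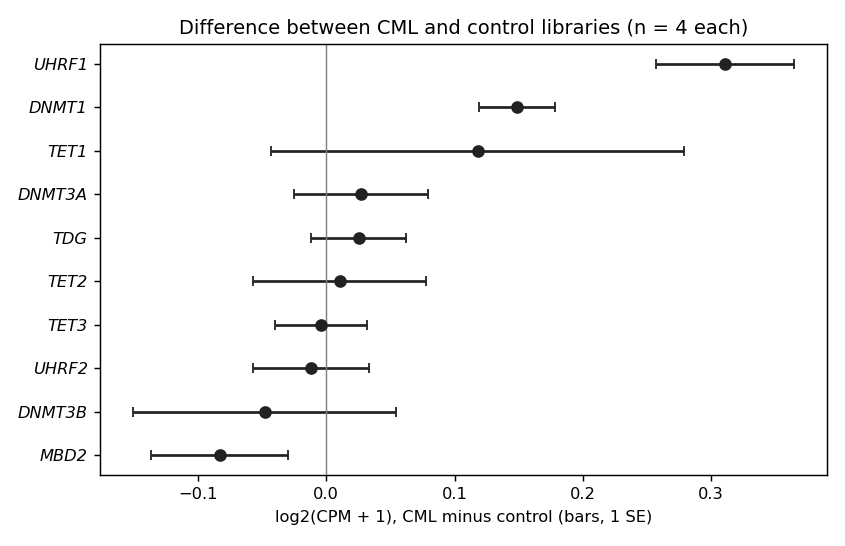
Difference in log2(CPM + 1) between CML and control for each gene, with bars of 1 SE from the model fitted over all genes and n = 4 libraries a group. UHRF1 (0.31) and DNMT1 (0.15) lie farthest to the right, TET1 (0.12) has the widest bar, and the others lie between −0.08 and 0.03.

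The median log2 difference was 0.02 over the 10 genes and 0.0066 over all genes. Over 15 alternative settings, the difference of UHRF1 stayed between 0.28 and 0.35 and that of DNMT1 between 0.13 and 0.17.

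Levels were compared between genes per kilobase of the reference transcript, in the control libraries. DNMT1 was highest at 29.8 ± 0.83 CPM per kilobase (SD, n = 4), followed by TDG at 17.0 ± 0.74. MBD2 at 10.3 ± 0.81 and UHRF2 at 9.92 ± 0.47 overlapped and their order is not settled. The next 3, DNMT3B at 4.37 ± 0.54, TET3 at 4.04 ± 0.21 and TET2 at 3.90 ± 0.37, overlapped from neighbour to neighbour. UHRF1 stood at 1.98 ± 0.14, below all of those, and DNMT3A at 1.32 ± 0.05 was lower still. TET1 was last at 0.064 ± 0.036. Per kilobase of transcript, DNMT1 was thus 22.5 times DNMT3A and 6.80 times DNMT3B, but 7.04 and 4.32 times per kilobase of coding sequence. UHRF2 was 5.0 times UHRF1 per kilobase of transcript and 4.54 times per kilobase of coding sequence. TET3 and TET2 were 62.8 and 60.6 times TET1 by transcript length and 93.7 and 64.5 times by coding length. The CML libraries gave the same order except for MBD2 and UHRF2, which changed places. Per kilobase of coding sequence instead, TDG and MBD2 came before DNMT1, TET3 before DNMT3B, and DNMT3A before UHRF1, whose coding sequence is not complete in the annotation used, so those positions depend on the length used.

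**Figure D3:**
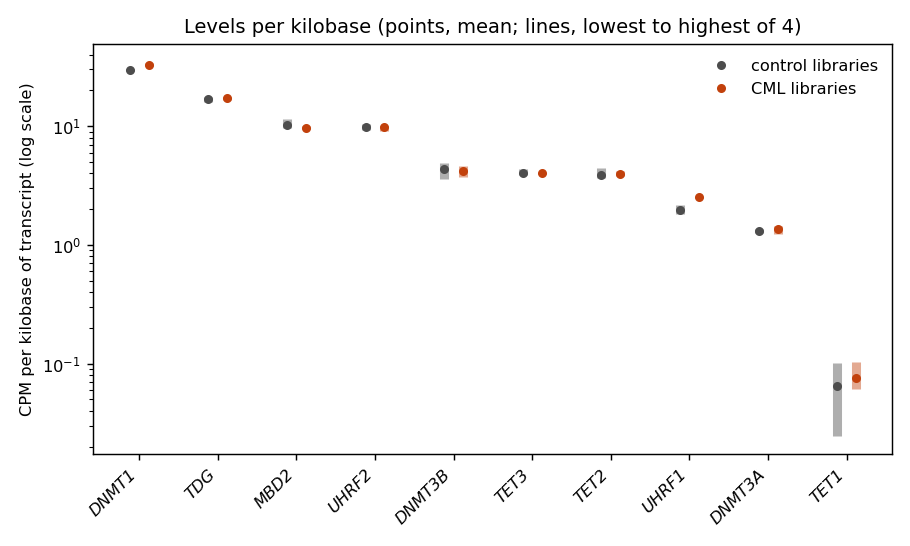
CPM per kilobase of transcript on a log axis for the 10 genes, ordered by their control mean, with points for the mean and lines from the lowest to the highest of 4 libraries in control (grey) and CML (orange). DNMT1 leads at 29.8, UHRF1 in CML (2.48 to 2.55) clears its control range (1.83 to 2.17), and TET1 lies far below the others.

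The genes whose pattern was most like that of UHRF1 were found among 13046 others with a mean of at least 1 CPM, by Pearson's r of log2(CPM + 1) over the 8 libraries. They were UBE2C (r = 0.98), the E2 enzyme of the anaphase-promoting complex, SHB (0.97), an adaptor protein, the RNA AC092295.2 (0.97), CEP72 (0.95), a centrosome protein, and PTTG1 (0.95), the securin that restrains separase. UBE2C was at 34.7 to 37.9 CPM in control and at 43.4 to 44.9 CPM in CML. DNMT1 ranked 18 (r = 0.92). MBD2 was far down the same order (r = −0.74), and the other members with at least 1 CPM lay between −0.28 and 0.34. These correlations are a description over 8 libraries in 2 groups that do not overlap for UHRF1, so any gene that differs between the groups scores well.

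After the group means were taken out, other genes led. UHRF1 varied more among its control libraries (SD 0.55 CPM) than among its CML libraries (0.12 CPM), so these values rest mostly on the 4 controls. The control spread of UHRF1, 7.16%, was also no larger than the 8.74% that counting reads gives alone. The r values below are the highest of 13046. The 5 highest were HDGFL2 (r = 0.99), TMEM11 (0.99), CLDN7 (0.98), RPS16 (0.97) and CRELD2 (0.97), and none of these 5 was among the first 5. Their transcripts had a GC content of 53.6% to 63.2%, against a median of 47.8% over all genes ranked. RPS16 is a ribosomal protein and CLDN7 a tight junction claudin. In the same measure DNMT1 had an r of 0.51 with UHRF1, TET2 of −0.74 and MBD2 of −0.88. The part of GC content in these values was not tested.

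**Figure D4:**
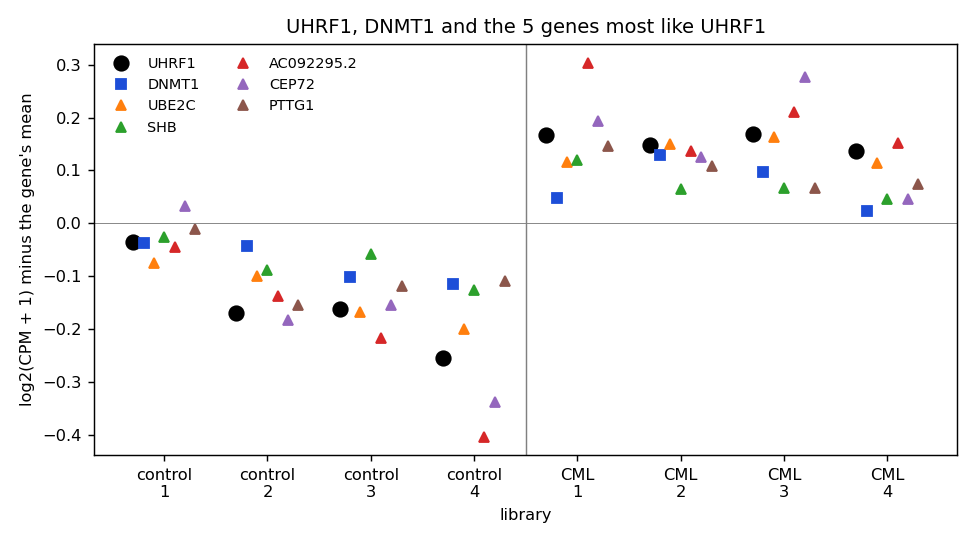
Log2(CPM + 1) minus the gene's mean in each library for UHRF1 (circles), DNMT1 (squares) and the 5 genes most like UHRF1 (triangles). All 7 genes are higher in the CML than in the control libraries, and UHRF1 is highest among controls in replicate 1 and lowest in replicate 4.

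No listed partner of UHRF1 and DNMT1 in maintenance methylation passed the threshold. UHRF1 and DNMT1 themselves were described with no test, so no contrast with them is drawn. Of 19 listed, 18 had a row, 14 were on average higher with CML, 0 passed an adjusted p of 0.3 in limma or in voom, and 2 had an unadjusted limma p below 0.05. Their median log2 difference was 0.04. Over all 17649 genes, limma passed 0.674% with a higher and 0.221% with a lower level. Voom passed 110 genes at 0.3, and 1352 had an unadjusted limma p below 0.05. At those shares, these counts in 18 genes say little about the list. The pair with the smallest p were PCNA and PCLAF. PCNA, the sliding clamp that ties DNMT1 to the fork, was at 32.9 ± 2.43 CPM in control and 37.0 ± 1.89 CPM in CML (log2 difference 0.17 ± 0.06, limma adjusted p = 0.554), and its groups overlapped. PCLAF, the PCNA-bound protein that UHRF1 ubiquitinates, was at 14.8 ± 1.04 and 16.7 ± 0.73 CPM (0.16 ± 0.06, limma adjusted p = 0.554), and its groups did not overlap.

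No listed reader, guide or eraser around the 10 genes was called, which in lists of this size says little. Over all 17649 genes, limma passed 0.674% higher and 0.221% lower, and 1352 had an unadjusted limma p below 0.05. Of 21 methyl-CpG readers and NuRD subunits, 0 passed in limma or voom, 1 had an unadjusted p below 0.05, and the median log2 difference was 0.0013. Their smallest p-values belonged to RBBP7, a histone-binding subunit (0.07 ± 0.03, limma adjusted p = 0.579), whose groups did not overlap, and ZBTB33, which encodes the reader Kaiso (0.08 ± 0.05, limma adjusted p = 0.760), whose groups did. Among genes that guide de novo methylation or protect CpG islands, 11 of 13 had a row, 0 passed in either method, 1 had an unadjusted p below 0.05, and the median was 0.02. NSD2, the histone H3 lysine 36 methyltransferase, differed by 0.12 ± 0.03 (limma adjusted p = 0.453) without overlap of the groups. KDM2B, a reader of unmethylated CG, differed by 0.07 ± 0.04 (limma adjusted p = 0.778), with overlap. Among 24 factors of active demethylation, 23 had a row, 0 passed in either method, 3 had an unadjusted p below 0.05, and the median was 0.02. PARP1 differed by 0.10 ± 0.03 (limma adjusted p = 0.489). IDH1, which makes the 2-oxoglutarate that TET enzymes consume, differed by −0.08 ± 0.03 (limma adjusted p = 0.620), and for both genes the groups overlapped.

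The methyl donor cycle was described in the same way. The same shares over all genes apply, 0.674% and 0.221% for limma calls and 1352 of 17649 for an unadjusted p below 0.05. Of 19 genes, 17 had a row and 5 of those never reached 1 CPM, 0 passed in limma or voom, 2 had an unadjusted p below 0.05, and the median log2 difference was 0.0054. MAT2A, which makes S-adenosylmethionine, was at 256.9 ± 8.28 CPM in control and 240.5 ± 5.87 CPM in CML (−0.09 ± 0.03, limma adjusted p = 0.453), and its groups did not overlap. GNMT, which consumes S-adenosylmethionine, was below 1 CPM in every library (−0.38 ± 0.12, limma adjusted p = 0.489). With GC content and length removed, 874 of 12977 genes passed 0.3. In these 5 lists and the imprinted list, those that passed with a higher level in CML included PCNA, NSD2, PARP1 and PEG10. Those lower with CML included RBBP4, OGT, IDH1, MAT2A and L3MBTL1.

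Genes that promoter methylation silences in somatic tissue were looked at as a readout of the pathway, although methylation itself was not measured. Of 38 germline genes, 23 had a row and 16 of those stayed below 1 CPM in all 8 libraries. The 4 with a mean of at least 1 CPM, named after their values were seen, were XAGE1B (46.0 to 82.9 CPM over the 8 libraries), MAGEC1 (13.1 to 16.4), MAGEA6 (3.50 to 5.85) and MAGEC2 (3.69 to 4.11), and the groups overlapped for each. None of the 23 passed in limma or voom, 0 had an unadjusted p below 0.05, and the median log2 difference was 0. The 16 that stayed below 1 CPM could hardly have shown a fall, so this median says little about silencing. The smallest p-values were those of MAGEA6 (0.23 ± 0.11, limma adjusted p = 0.729) and CTAG2 (−0.14 ± 0.10, limma adjusted p = 0.862), and members of these families share sequence, so reads may be split among copies. Of 23 imprinted genes, 20 had a row, 0 passed in limma or voom, 3 had an unadjusted p below 0.05, and the median was 0.00047. Over all 17649 genes, 1352 had an unadjusted limma p below 0.05, and limma passed 0.674% higher and 0.221% lower. L3MBTL1 was at 9.79 ± 0.40 CPM in control and 7.90 ± 0.66 CPM in CML without overlap (−0.28 ± 0.06, limma adjusted p = 0.323). PEG10 differed by 0.11 ± 0.03 (limma adjusted p = 0.474), also without overlap.

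The 9 lists were chosen with earlier results of these data known, so nothing is read from which of them hold calls. All genes of the 9 lists that passed a limma adjusted p of 0.3, the study's own threshold, lay in the S phase and G2/M lists. Over all genes, 0.674% passed it with a higher and 0.221% with a lower level. At 0.05 limma passed 0 genes, although 1352 had an unadjusted p below 0.05 and voom on estimated reads passed 20. Of 42 S phase genes, 4 of which are also in the maintenance list, 4 rose with CML and 0 fell at a limma adjusted p of 0.3, 39 were on average higher, and the median log2 difference was 0.12 against 0.0066 for all genes. CDC45, a helicase subunit of the fork, rose from 7.51 ± 0.33 to 10.4 ± 0.42 CPM (0.43 ± 0.05, limma adjusted p = 0.0856). TYMS, the thymidylate synthase, rose by 0.35 ± 0.05 (limma adjusted p = 0.098), and the ribonucleotide reductase subunits RRM2 and RRM1 by 0.39 ± 0.08 and 0.21 ± 0.05 (limma adjusted p = 0.278 and 0.286). Of 54 G2/M genes, 16 rose and 0 fell, 52 were on average higher, and the median was 0.21. The 10 with the smallest p were the kinetochore subunit NDC80, UBE2C, the proliferation antigen MKI67, CKAP2, DLGAP5, the checkpoint kinases BUB1 and TTK, the spindle factor TPX2, CDCA2 and the cytokinesis scaffold ANLN. They rose by 0.22 to 0.35, with limma adjusted p from 0.0802 to 0.179. NDC80 had the smallest p of these and rose from 20.6 ± 0.92 to 26.5 ± 0.67 CPM. Without CML replicate 2 the calls were 1 and 4 in the S phase and G2/M lists, beside 20 over all genes. Without control replicate 4 they were 9 and 31, beside 690. With GC content and length removed they were 9 and 40, beside 874.

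UHRF1 was set beside these lists within the groups as well as between them. Over the 8 libraries the median r with UHRF1 was 0.39 over the 42 S phase genes and 0.66 over the 54 G2/M genes, against 0.06 over all genes ranked. These values mostly restate the group differences, since UHRF1 separates the groups and the lists were chosen with earlier results known. After the group means were taken out, the medians were −0.37 and −0.58, against −0.14, and 12 of the S phase and 13 of the G2/M genes had a value above 0. The transcripts of these lists had a median GC content of 43.1% and 42.1%, below the 47.8% of all genes ranked and the 55.7% of UHRF1. The sign of the median thus differed between the comparison across groups and that within them, and the libraries with the strongest relation to GC content lie at both ends of the UHRF1 order among controls. The part of base composition in this was not tested.

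**Figure D5:**
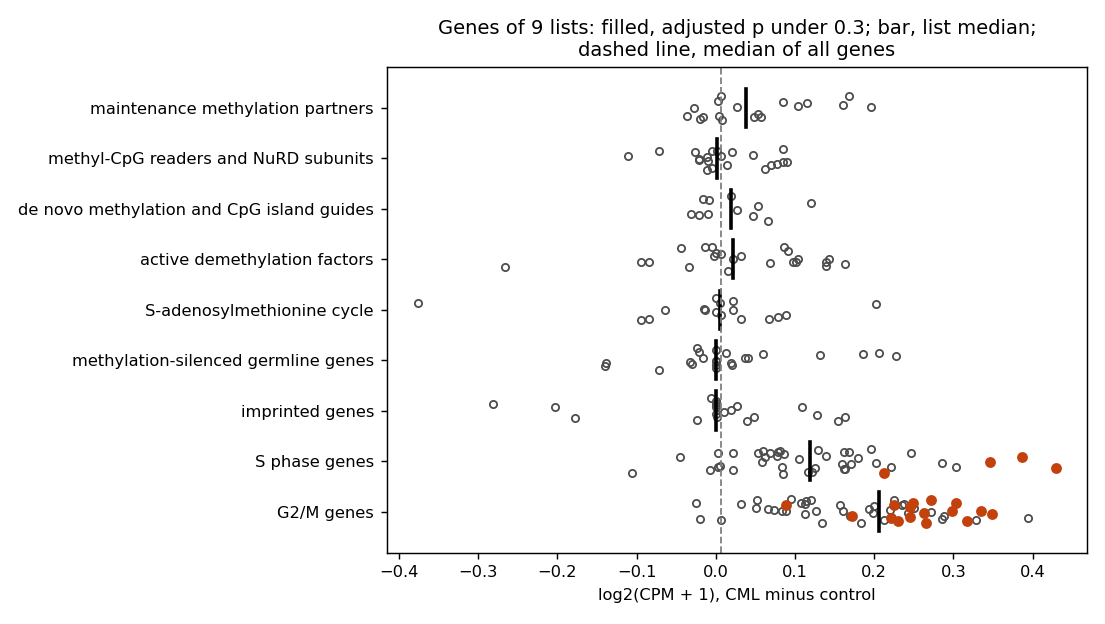
Difference in log2(CPM + 1) between CML and control for every gene of the 9 lists that had a row, with filled points for a limma adjusted p below 0.3, a bar at each list's median and a dashed line at the median of all genes (0.0066). Filled points appear in the S phase and G2/M lists, 4 and 16 genes, all to the right of 0.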

How the data were processed

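RNA-Seq was done by the authors on 4 control and 4 CML libraries of MDA-MB-231 cells. The values are CPM that the authors normalized and deposited as 1 table. The submitters' processing notes name the genome build hg38 and edgeR. The study's methods describe TopHat alignment to an older human build and a stranded library kit, which they do not tie to the CML libraries, and no counter was named for these. CPM steps gave estimated reads, but at most 87.2% of the values above 0 were whole within 0.05 read, so no count model was the main test, and limma's voom on the estimated reads was an alternative.

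The 17681 rows were averaged by symbol to 17649 genes. Differences were fitted in limma (version 3.58.1, R 4.3.3) with a variance trend on log2(CPM + 1), two-sided, without a filter, and adjusted over all genes by Benjamini-Hochberg at the study's threshold of 0.3. The 10 genes and the 9 gene lists were chosen with earlier results of these data known. Named were the 10 genes, the list genes past the threshold (at most 10 per list, or the 2 with the smallest p where none passed), and the 5 genes most like UHRF1 in either measure. Transcript lengths and GC content came from the lifted GENCODE v44 annotation, and loci and promoters from RefSeq GRCh38.p14. Alternatives were the pseudocount, a filter, a replicate block, 2 scalings, no trend, voom, each library left out, and removal of GC content and length. The values of 1 list gene are not reported here.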

Additional observations from a re-analysis of the deposited data

Results flagged for a closer look

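In 76 groups of 4 libraries (the 10 genes and the list genes named above), 5 had 1 library farther from the nearest of the others than Dixon's 95% critical value allows, where chance flags about 1 in 20. UHRF2 was at 32.8 CPM in CML replicate 4, against 35.8 to 36.1 CPM in the other CML libraries. TET2 was at 42.7 CPM in control replicate 4, against 35.2 to 36.2 CPM in the other controls. TDG was at 52.5 CPM in CML replicate 2, against 55.8 to 56.3 CPM. MAGEA6 was at 5.85 CPM in CML replicate 3, against 4.83 to 4.93 CPM. PEG10 was at 121.0 CPM in control replicate 4, against 109.3 to 111.3 CPM. Of these 5, 3 lay in a replicate 4 library, and both of those libraries had a negative relation to transcript GC content; its part in the values was not tested.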

How the results depend on the processing

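The difference of UHRF1 moved by less than its SE of 0.054 in all 15 alternatives and kept its direction. It ran from 0.28 to 0.35 on the log2 scale, and from 0.28 to 0.35 with each library left out. The groups do not overlap for UHRF1 or DNMT1, so leaving out 1 library could not change the direction of either. DNMT1 also stayed higher (0.13 to 0.17) and MBD2 lower (−0.11 to −0.03), while the signs of UHRF2, DNMT3A, DNMT3B, TET1, TET2, TET3 and TDG changed in at least 1 alternative. TET1 moved to 0.39 ± 0.40 (SE) with voom. The count of passing genes, 158 in all, was 73 with libraries centred on their median, 874 with GC content and transcript length removed, and 923 with a replicate block added to that. Leaving out 1 library gave 20 to 690. The 20 list genes fell to 11 with centring, rose to 58 with GC content and length removed and to 58 with the block added, and ran from 5 to 45 with 1 library left out. Each of the 7 lists with no passing gene had at most 3 in any alternative. Libraries with the same replicate number deviated together by r = 0.20, −0.03, −0.06 and 0.33. The CML library nearest to a control had the same number for replicates 1 and 4, and another number for replicates 2 and 3. Whether the numbers pair the samples is therefore not settled, and the replicate block alone gave 189 genes. Of the 5 genes most like UHRF1, Spearman's rho kept 2. Centring lowered the median difference of genes with at least 1 CPM from 0.015 to −0.0048. The cause of these shifts was not tested. Depth limits TET1, at 4 to 17 reads.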
